A study of Homo sapiens with 2 samples.

Results

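The BCL2 family decides whether a cell releases cytochrome c from its mitochondria. Survival proteins (BCL2, BCL2L1, BCL2L2 and MCL1) hold back the pore-forming effectors BAK1 and BAX in the outer mitochondrial membrane, and the BH3-only proteins (BID, BAD, BIK, BMF and BCL2L11) bind into a groove of the survival proteins and release or activate the effectors. Colon cancer cells are known to lean on BCL2L1 and MCL1 in particular. The 10 genes named here were chosen by symbol from this family, out of 21613 genes that had a probe with a RefSeq name, and every probe whose RefSeq accession belongs to one of them was examined. The array carried 15 such probes in 33 spots.

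The cells were HCT116, an established human colon cancer cell line. Cells given the pEB-mock vector (mock, genotype control) were set against cells that overexpressed HOXA5 short RNA from the same vector, and both had 2 weeks of blasticidin selection. HOXA5 short RNA is a long non-coding RNA of the HOXA6-HOXA5 locus. Whether the resistant cells were a pool or a clone is not given in the sources used here. Total RNA was labeled with Cy3 and hybridized to SurePrint G3 human arrays, with 1 array for each group, so no difference was tested, no value has an error between cultures, and each difference describes this pair of arrays. The comparison addresses whether the BCL2 family transcripts differed in cells that carried HOXA5 short RNA, the RNA that the study examined for its effect on growth.

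The value of a probe was the log2 of its processed signal (the background-corrected brightness given by the scanner software) less the 75th percentile of its array, which was 35.7 for mock and 44.0 for HOXA5 short. Differences are HOXA5 short minus mock on this log2 scale, so a difference of 1 is 2-fold. The HOXA5 probe, the check of the labels, was at 39.4 (scanner error 4.32) and 346 (scanner error 34.6), a log2 difference of 2.83, and which transcripts of the locus it reads was not examined. Of the 11 colon epithelial markers, 7 were well above background on both arrays, EPCAM, CDH1 and CDX2 among them, while KRT20, VIL1, LGALS4 and CEACAM5, markers of differentiated colon cells, were not. Of the 10 markers of other cell types only COL1A1, at 16.7 and 22.6, was well above background.

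Most of the family was detected and lay close to 0. Of the 15 probes, 10 were well above background on both arrays, where 51.0% of all probes with a RefSeq name were. These 10 probes measured 8 of the 10 genes, and BCL2 and BMF had no probe that could be compared. No measured member reached 2-fold in either direction (0 higher, 0 lower). The share of all 11994 compared genes past this fold was 0.642% upward and 0.258% downward. At 1.5-fold the members again numbered 0, against 4.38% of all genes. The 8 measured members all lay within 0.2 of 0, where 65.9% of all genes lay. Their median was -0.06, beside -0.02 for all genes, and their median absolute difference was 0.09, beside 0.14. In RNA from a whole culture, fewer cells with a transcript and less of it in each cell cannot be told apart.

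**Figure D1:**
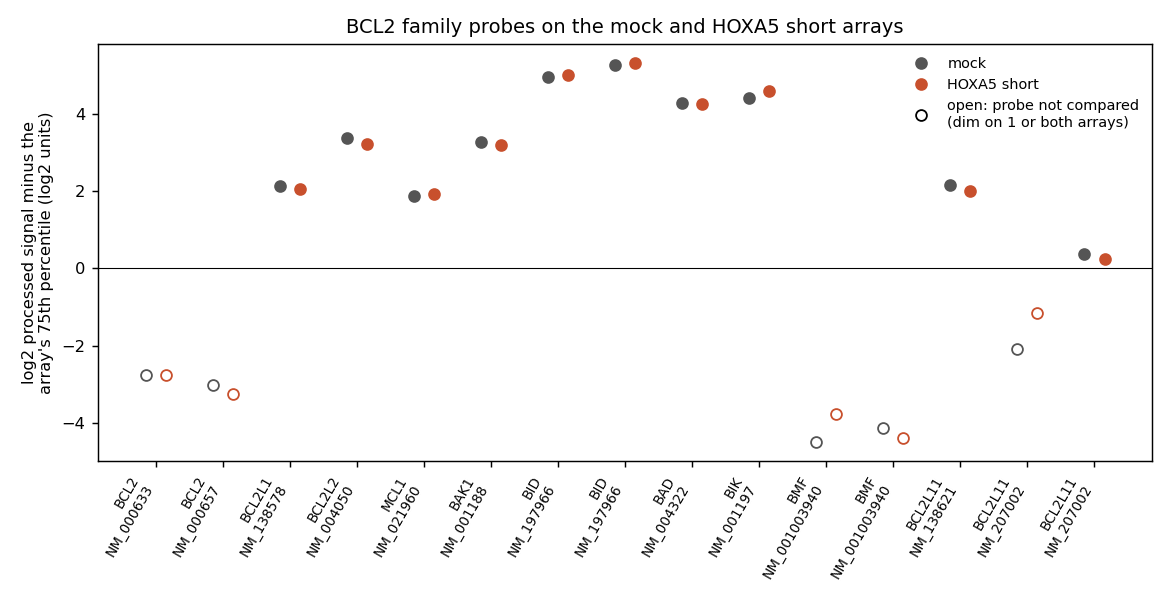
Scaled level of every BCL2 family probe (log2 processed signal minus the 75th percentile of the array) on the mock array (gray) and the HOXA5 short array (orange), with open circles for probes not well above background on 1 or both arrays. The filled pairs lie almost level, and the open pairs of BCL2 and BMF lie below -2. Levels of different probes are not comparable with each other.

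The survival genes came first. BCL2L1 encodes BCL-XL, and a shorter splice product of the same gene opposes it. Its probe (NM_138578, chromosome 20) was printed in 10 spots, of which 9 were used and 1 was left out as flagged. The mock signal had a lowest value of 147, a median of 157 and a highest value of 174 over these spots, and the HOXA5 short signal ran from 174 through a median of 181 to 198. The mean was 158 ± 8.18 (SD, n = 9 spots) and 181 ± 7.08 (SD, n = 9 spots). After scaling, 8 of the 9 spots were below 0 and 1 was above, with single-spot differences from -0.26 to 0.04. The mean log2 difference was -0.10 ± 0.09 (SD, n = 9 spots), with a standard error over spots of 0.03. The spots are copies on 1 array and hold no spread between cultures. The sign depended on the background correction and the scaling: normexp, a model-based background correction, gave 0.01 and scaling to the RNA spike-ins of the labeling kit gave 0.36.

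BCL2L2 encodes BCL-W, a survival protein close to BCL-XL. Its single spot (NM_004050, chromosome 14) read 370 (scanner error 37.0) in mock cells and 410.5 (scanner error 41.1) in HOXA5 short cells. Its log2 difference of -0.15 was the lowest of the measured members, was smaller than 0.25, the SD of a single spot among probes of like brightness (signals from 200 to below 500), and became 0.30 with scaling to the spike-ins.

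MCL1 encodes a short-lived survival protein that binds BAK1 and BCL2L11. Its spot (NM_021960, chromosome 1) read 130 (scanner error 13.1) and 166 (scanner error 16.7), a log2 difference of 0.05. The SD of a single spot at signals from 50 to below 200 was 0.27. Its neighborhood on the array held 42 well-measured spots, of which 2 differed 2-fold, and with the local mean subtracted the MCL1 difference was -0.06.

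BCL2, the founding member, was too dim to be compared. Its probe for NM_000633 (chromosome 18) was printed in 10 spots. The mock signals ran from 3.55 through a median of 5.13 to 7.80, and the HOXA5 short signals from 1.98 through 7.94 to 12.1. The lowest probe signal that counted as well above background was 7.74 in mock and 8.16 in HOXA5 short. These values are no cutoff for single spots, which are flagged separately. Mock spots of this probe at 7.79 and 7.80 and HOXA5 short spots at 8.51 and 9.20 were not well above background. By the flags of the scanner software 0 of 10 mock spots were well above background, against 3 of 10 HOXA5 short spots, at 10.3, 10.7 and 12.1. The single-spot log2 differences ran from -1.96 to 1.24 with a mean of 0.02 ± 0.99 (SD, n = 10 spots), and 6 were above 0 and 4 below. The spots of the 2 arrays overlapped, and the spread was too wide for a value. A further BCL2 probe (NM_000657) read 4.43 (scanner error 1.94) and 4.61 (scanner error 2.18), not well above background on either array. No fold is given for BCL2, and the low signal does not show that the transcript was absent.

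**Figure D2:**
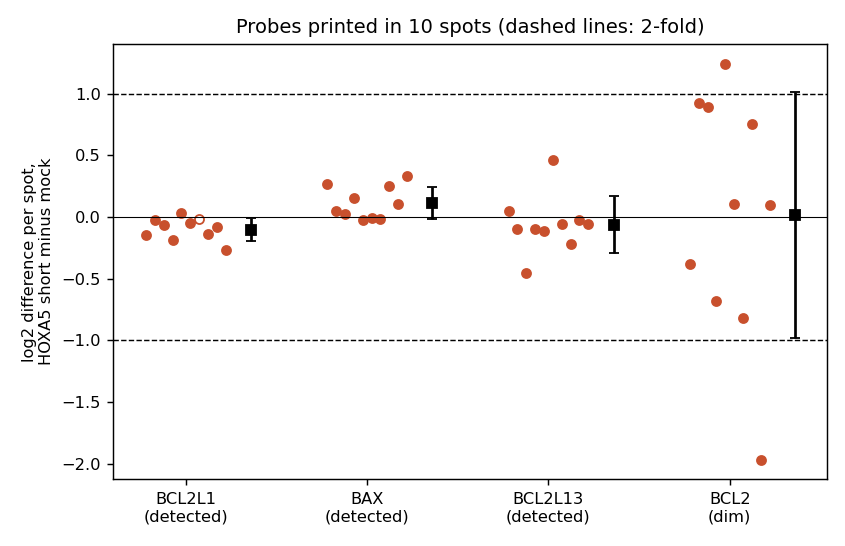
Log2 difference (HOXA5 short minus mock) of each spot for the 4 probes of BCL2 family genes printed in 10 spots, with the mean and SD over spots as black squares and bars, an open circle for the flagged spot and dashed lines at 2-fold. The spots of BCL2L1 and BAX lie between -0.27 and 0.34, those of BCL2L13 run from -0.46 to 0.47, and the dim BCL2 probe scatters from -1.96 to 1.24.

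BAK1 was the effector in the set. It encodes the pore-forming protein that resides on mitochondria and is held in check by MCL1 and BCL-XL. Its spot (NM_001188, chromosome 6) read 343 (scanner error 34.4) and 399.8 (scanner error 40.0). The log2 difference was -0.08, with a single-spot SD of 0.25, and it was above 0 with scaling to the median, with normexp (0.07) and with scaling to the spike-ins (0.37). The difference of BAK1 less that of BCL2L1 was 0.02, and that of BAK1 less that of MCL1 was -0.13. Such a contrast between genes does not depend on a common shift of the array.

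Of the BH3-only genes, BID links death receptors to mitochondria, since CASP8 cuts its protein into the active form. It was read by 2 bright probes. One probe for NM_197966 (chromosome 22) read 1100 and 1411 (scanner errors 110.0 and 141), a log2 difference of 0.06. The other probe for the same accession read 1381 and 1755 (scanner errors 138 and 175.5), a log2 difference of 0.04. The probes were 0.01 apart, and the gene mean of 0.05 was smaller than the single-spot SD of 0.22 at signals of 500 or more.

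BAD encodes a BH3-only protein that growth factor signaling silences by phosphorylation. Its spot (NM_004322, chromosome 11) read 694 (scanner error 69.5) and 835 (scanner error 83.5). The log2 difference was -0.04. It was above 0 with scaling to the median, with normexp and with scaling to the spike-ins, the last of which gave 0.42.

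BIK encodes a BH3-only protein found mainly at the endoplasmic reticulum. It had the highest difference of the measured members. Its spot (NM_001197, chromosome 22) read 756 (scanner error 75.6) and 1055 (scanner error 105.5). The log2 difference of 0.18, a scaled signal 13.1% higher, was 0.80 of the single-spot SD of 0.22. The BIK difference was positive in every setting that was run, from 0.16 to 0.35 and 0.63 with scaling to the spike-ins. The same held for BID. Every setting reads the same single BIK spot, so the settings are not independent of each other. The difference of BIK less that of BCL2L1 was 0.28, less that of MCL1 0.13 and less that of BCL2L2 0.33. The last is the widest contrast in the set, between its highest and lowest measured members. No spread was computed for these contrasts.

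BCL2L11 encodes BIM, a BH3-only protein that binds all the survival proteins and occurs in several splice forms. Its 3 probes (chromosome 2) did not give 1 answer. The probe for NM_138621 read 160 (scanner error 16.1) and 176 (scanner error 17.8), a log2 difference of -0.16. A probe for NM_207002 read 46.3 (scanner error 4.92) and 52.2 (scanner error 5.54), a log2 difference of -0.13. These were 0.03 apart and averaged -0.15. The remaining probe for NM_207002 read 8.34 (scanner error 2.03) in mock cells, not well above background, and 19.9 (scanner error 2.80) in HOXA5 short cells, well above it. At this probe the scaled signal of HOXA5 short cells was 1.93-fold higher. The mock signal was above 7.74, the lowest probe signal that counted as well above background in mock. The bound for this probe is therefore the ratio of its scaled readings and not a lower limit. Since the mock reading was not well above background, this ratio is not a measured fold. Of the 1014 probes on the array that were well above background only with HOXA5 short RNA, 7.20% had a bound as large (73 probes). These probes were picked by the same detection rule as the dim BCL2L11 probe, so the share does not measure how rare its difference is. The single-spot SD at signals from 5 to below 15 was 0.63, and 95% of single spots lay within 1.33 of the mean of their copies. The log2 difference of the dim probe, 0.95, was inside that range. With this probe included the gene mean was 0.22, so the sign for BCL2L11 rested on whether the dim probe was counted, and the gene was also above 0 with scaling to the spike-ins (0.31). Probe sequences were not used here, so which splice forms each probe reads was not examined.

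BMF encodes a BH3-only protein that, like BIM, can be tethered by dynein light chains. Both its probes were for NM_001003940 (chromosome 15). One read 1.57 (scanner error 1.58) and 3.21 (scanner error 1.75), and the other 2.02 (scanner error 2.03) and 2.11 (scanner error 2.12). All 4 readings were below the lowest signal well above background, and no difference is given.

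**Figure D3:**
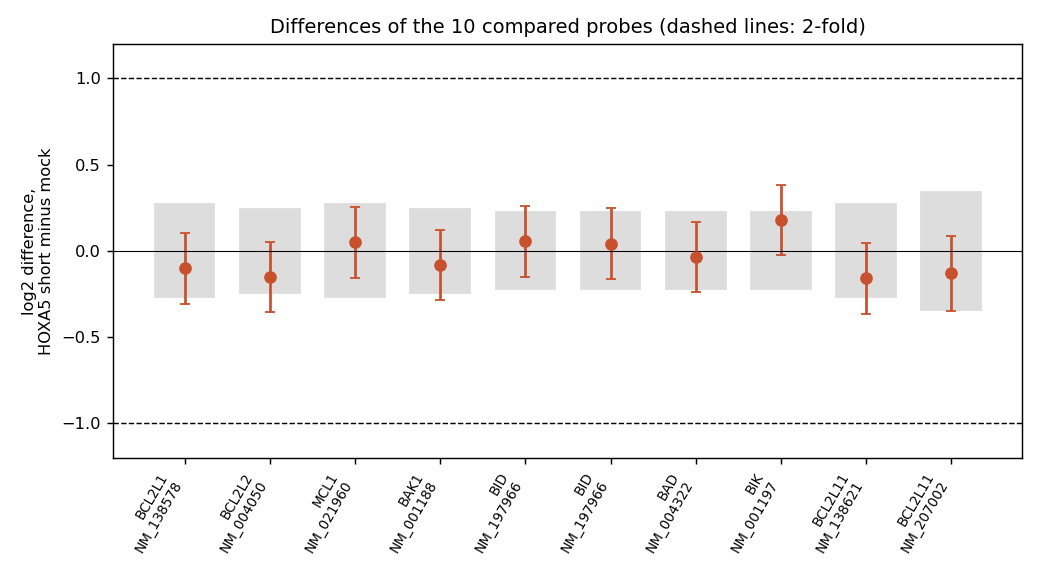
Log2 difference (HOXA5 short minus mock) of the 10 compared probes, with the error given by the scanner software as bars, plus or minus the SD of a single spot at the same brightness as gray boxes and 2-fold as dashed lines. Every point lies inside its gray box.

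Grouped by role, the 3 measured survival genes had a median log2 difference of -0.10 and the 4 measured BH3-only genes 0.01. Of the survival genes 1 was above 0 and 2 were below, and of the BH3-only genes 2 were above and 2 below. Over all 11994 compared genes the median was -0.02, so more genes lay below 0 than above. The sign counts are not read as a result about either role. All 8 measured members differed by less than the single-spot SD at their brightness, and the whole family spanned 0.33 from BCL2L2 to BIK. The share of all genes below their own single-spot SD was not computed, and 65.9% of all genes lay within 0.2 of 0. The count is therefore not read as a result about the family. The single-spot SD is for 1 spot, while BID and BCL2L11 are means of 2 probes. BCL2L1 is a mean of 9 spots, with an SD of 0.09 and a standard error of 0.03 over those spots. Among probes with copies, 95% of single spots lay within 0.48 of the mean of their copies at signals from 50 to below 200, within 0.64 from 15 to below 50, within 0.42 from 200 to below 500 and within 0.34 at 500 or more, so a 2-fold difference would have stood outside the spread of spots for each compared probe. None of the 33 spots lay in an uneven zone, an area where at least 10% of the well-measured neighboring spots differed 2-fold (0 of 33). Leaving such zones out kept 11817 of the 11994 compared genes, so this is not particular to the family. The 5 rows and 5 columns on each side of a spot held from 22 to 54 well-measured neighbors, and for 24 spots none of them differed 2-fold.

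**Figure D4:**
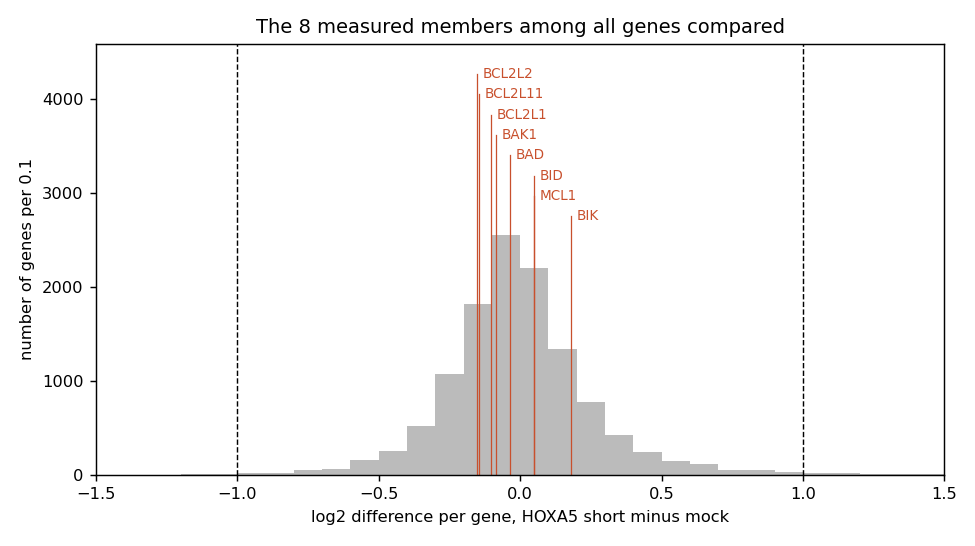
Histogram of the log2 difference (HOXA5 short minus mock) of all 11994 genes compared, in steps of 0.1, with the 8 measured members as orange lines and 2-fold as dashed lines. The members run from -0.15 to 0.18, within the central peak; genes beyond 1.5 in either direction are not drawn.

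The other genes of the family were compared in the same way. Of 13 further family genes, 10 were measured, 5 above 0 and 5 below, and none was at 2-fold (0 higher, 0 lower). Their median was -0.0003, beside -0.02 for all compared genes. The highest was PMAIP1, which encodes NOXA, the BH3-only partner of MCL1. It read 631.5 and 1148, and the log2 difference of 0.56 exceeded the single-spot SD of 0.22. PMAIP1 is named as the highest of 10 measured genes. It was not alone in this, since CASP6, in a list below, was at 0.56 with a single-spot SD of 0.27. The share of all genes beyond their own SD was not computed. The lowest was BNIP3L, a mitophagy receptor, at -0.30, with probes at -0.19 and -0.42. BAX and BCL2L13 were added after their values were seen, because each had a probe printed in 10 spots. BAX encodes the other main effector, and its 10-spot probe was for NM_138764. The mock signals ran from 409.7 through 481 to 502, and the HOXA5 short signals from 595 through 623 to 672. The mean log2 difference was 0.11 ± 0.13 (SD, n = 10 spots), and a dimmer BAX probe gave -0.17. BCL2L13 encodes a mitochondrial outer membrane protein of the family, and its 10-spot probe was for NM_015367. The mock signals ran from 117 through 171 to 197, and the HOXA5 short signals from 177.5 through 201 to 209. The mean log2 difference was -0.06 ± 0.23 (SD, n = 10 spots), 1 of these spots lay in an uneven zone, and a dimmer BCL2L13 probe gave 0.21. For both genes the 10-spot probe and the dimmer probe thus had opposite signs. BCL2L10, BCL2L14 and BCL2L15 could not be compared.

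Downstream and upstream steps also had no gene at 2-fold in either direction. Of the 10 genes of caspase activation 9 were measured, with a median of -0.08. They ran from CYCS (cytochrome c) at -0.13, whose 3 probes gave 0.05, -0.08 and -0.37, to CASP6, an executioner caspase, at 0.56. APAF1, the scaffold of the apoptosome, was not well above background. The 6 measured inhibitors of apoptosis had a median of -0.15, from NAIP at -0.48 to BIRC3 at 0.24. The NAIP value rested on a dim probe at 15.1 and 13.4, and NAIP has near-identical copies in the genome, so it is uncertain. The 8 genes of the death receptor route to BID had a median of -0.06, from TNFRSF10B at -0.16 to RIPK1 at 0.21. The 9 binding partners of BAD, BIM and BMF had a median of -0.04, from YWHAB, a phosphoprotein-binding adaptor, at -0.14 to DYNLL2, a dynein light chain that binds BMF, at 0.25. The 7 genes of MCL1 turnover had a median of -0.12. They ran from the ubiquitin ligase HUWE1, whose probes disagreed at -0.53 and 0.17, to MARCHF5, at 0.39 on a dim probe of 17.8 and 28.7.

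**Figure D5:**
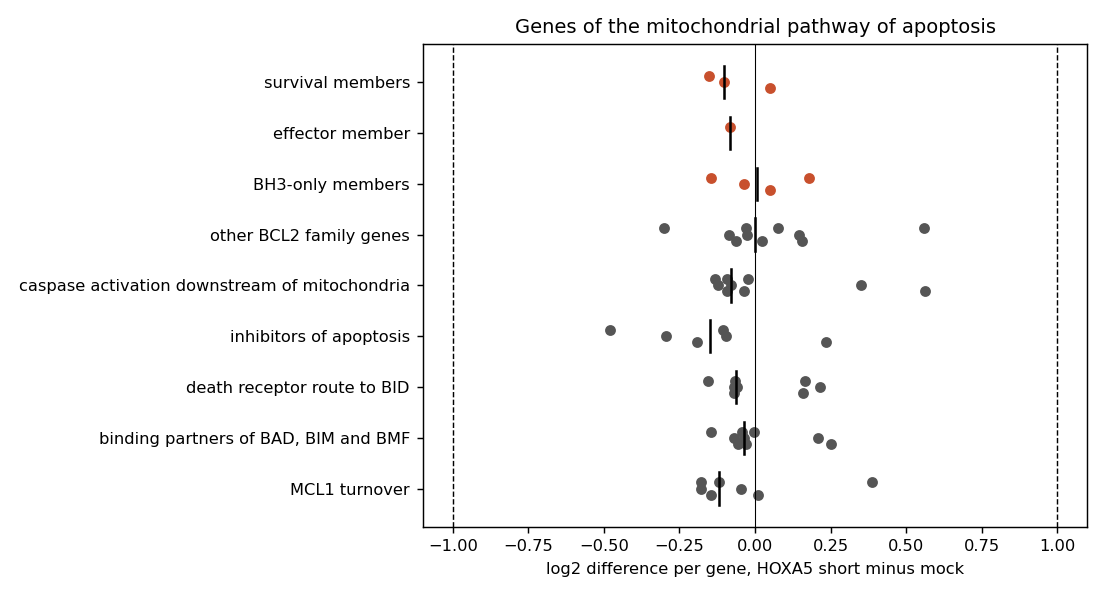
Log2 difference (HOXA5 short minus mock) of each measured gene in the BCL2 family (orange) and in the further lists (gray), with the median of each list as a black bar and 2-fold as dashed lines. No gene reaches 2-fold, and the highest values are those of PMAIP1 and CASP6 at 0.56.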

How the data were processed

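Expression was measured on 2 single-color Agilent arrays (1 per group, assigned by the genotype label). The authors deposited the spot intensity from Feature Extraction 11.5.1.1, per the file headers, on a linear scale with the background corrected by that software, and a table of log2 values, per probe centered, made in GeneSpring after weak and flagged signals were removed.

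From the intensity, log2 processed signals were averaged over the spots of a probe. Spots flagged as outliers on either array were left out, and the 75th percentile over non-control probes was subtracted. A probe was compared when most of its spots were well above background on both arrays (17938 probes; leaving out the lowest 20% of signals removed 0 more). Gene values are means of compared probes. Accessions were matched without versions to RefSeq records of GRCh38.p14 (59.3% of probes). Coordinates are left out, since the annotation of the arrays (hg19) is of another build. The scanner error of a signal is that of Feature Extraction. The single-spot SD came from probes printed in 10 spots, flagged spots included. A probe well above background on 1 array got a bound: the bright value over the dim one, with the dim one raised where needed to the lowest signal that counted as well above background there. Precision is limited by the number of arrays.

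The members and lists were chosen with earlier results of these data known. Genes named besides the 10 members are HOXA5 and the highest and lowest of each list. BAX, BCL2L13, APAF1, the genes that could not be compared and the markers were named after their values were seen. Alternatives were scaling to the median, over detected probes or to the spike-ins, quantile normalization and normexp (limma 3.58.1, R 4.3.3; offset 50, on median foreground signals), the deposited log2 values, no filter, a signal of at least 50, the brightest probe, uneven zones left out (at least 10 neighbors), the local mean subtracted, and 1.5-fold. The per-probe steps were tested on simulated data.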

Additional observations from a re-analysis of the deposited data

Results flagged for a closer look

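In 2 member probes that the comparison leaves out, spots were well above background with HOXA5 short RNA and none were in mock. The rule for this flag looked only for more such spots with HOXA5 short RNA, not for the reverse. Over all non-control probes, 37.5% were well above background on the HOXA5 short array and 36.4% on the mock array. The flags are therefore not read as a pattern of the family. The dim BCL2L11 probe (NM_207002) was well above background only with HOXA5 short RNA, with a ratio of 1.93-fold between its scaled readings. The BCL2 probe printed in 10 spots was well above background in 3 of them on the HOXA5 short array and in 0 on the mock array, but its mean log2 difference over the spots was 0.02 ± 0.99 (SD, n = 10 spots), with 6 spots above 0 and 4 below. Neither pattern was tested.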

How the results depend on the processing

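Values are said to move where they shift by the single-spot SD at their brightness or more (0.26 for a list median), and counts where they shift by over 1.5 times. The counts of members at 2-fold were 0 in both directions under all 12 alternatives. Of 88 recomputed member values 10 moved: all 8 under spike-in scaling, which shifts every gene by 0.46, and those of BCL2L11 with the deposited log2 values (0.22), which hold the dim probe, and without a filter (0.22). The single-spot SD was larger than every member value, so a change of sign could count as not moved. Members with 1 probe kept their value by construction without a filter, at signals of at least 50, with the brightest probe and with uneven zones left out. The count is thus no measure of how stable the values are. 

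The spike-in shift rested on 7 spike-ins, whose own log2 differences ran from -0.66 to -0.06 with a median of -0.46. Spike-in scaling gave medians of 0.36 for the survival genes and 0.46 for the BH3-only genes, beside 0.44 for all genes. The counts of all probes at least 2-fold higher and lower were 190 and 57, and became 827 and 19 with spike-in scaling, 102 and 16 with normexp, 497 and 241 in the deposited values, 1701 and 2343 without a filter, 99 and 25 at signals of at least 50, and 708 and 414 at 1.5-fold. The threshold changes counts by construction; otherwise the cause was not tested. No paired analysis was possible because there is a single array per group. Low signal limits BCL2 and BMF, for which no difference can be given.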
